A study of Schizosaccharomyces pombe with 3 samples.

Results

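Gene expression in the adapted eca39 deletion culture of the fission yeast Schizosaccharomyces pombe was compared with that of wild type, and 51 named genes that differed 1.5-fold or more are described here, out of 2899 named genes and 4981 features in the table. The adapted culture came from strain SpHT257-1 (h-, eca39∆::kanMX4), in which a kanMX4 cassette replaced eca39, and its cells were taken from an EMM2-N plate with glutamate at 15 mM and the 3 branched-chain amino acids isoleucine, leucine and valine at 2 mM each, where they had grown close to wild-type cells. The unadapted deletion culture came from the same strain taken from a YE plate, a rich medium. Wild type was the prototrophic strain SpHT219 (h-), also taken from a YE plate. Each culture was grown in liquid YE that held the same 3 amino acids at 2 mM, starting at an optical density near 0.1 and ending near 1, and total RNA was hybridised to 1 Affymetrix array per culture. The adapted culture thus differed from wild type in the deletion, in the adaptation and in the plate it came from, and these cannot be told apart.

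Eca39 encodes the aminotransferase that makes and breaks down isoleucine, leucine and valine by moving an amino group between glutamate and their keto acids. Fission yeast that runs short of good nitrogen sources induces permeases, catabolic enzymes and proteases, and cells of opposite mating type then conjugate and enter meiosis. That switch runs through the transcription factor Ste11 and the RNA-binding protein Mei2, and pheromones made by one mating type act on the other.

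A rise or fall in the adapted culture was called for a feature where it differed 1.5-fold or more from wild type and the higher of both log2 values reached 9.82, the 30th percentile of all values in the table. Of 3588 features at that brightness limit, 130 rose (3.62%) and 15 fell (0.418%). Among the 2139 named genes at the limit, 43 rose (2.01%) and 8 fell (0.374%), while 2088 did neither. With 1 array per group there is no replicate error, no test and no p-value, the number of arrays limits the precision, and every difference is one between these cultures. The array medians were 10.69, 10.69 and 10.64 for the adapted, unadapted and wild-type cultures. Dim features read somewhat higher in the adapted culture, by a median of 0.11 on the log2 scale over the 1660 dimmest features, 0.018 over the next 1660 and 0 over the 1661 brightest.

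Most differences were modest. Of the genes that rose, 26 differed by less than 2-fold, 9 by 2-fold to 4-fold and 8 by 4-fold or more, and of those that fell the same bins held 4, 3 and 1. The 43 genes that rose had a median level of 12.28 in the adapted culture and 10.78 in wild type, where 9 of them read below the brightness limit. Those 9 passed through their level in the adapted culture, and 1 of them, mfm3, read below the 10th percentile of the table in wild type. The named genes closest to the size limit were aat1, ppk18 and sro1 just inside, at 0.59, 0.59 and 0.60, and wtf14, pdx1 and ppe1 just outside, each at 0.58. Among genes that were lower, zrt1, rpa34 and ght2 stood just inside at -0.60, -0.62 and -0.71, and ubp1, ppp1 and utp5 just outside at -0.57, -0.56 and -0.54. Within 0.05 of the limit lay 8 genes that rose and 12 that stopped short of it, so membership of the genes with the smallest rises is loosely set. After an intensity trend between the arrays was removed by lowess, mam1, ish1, ppk18 and aat1 no longer passed, and after a repeated quantile normalization these 4 and mam3, rex2, vht1, pha2 and sro1 did not.

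**Figure D1:**
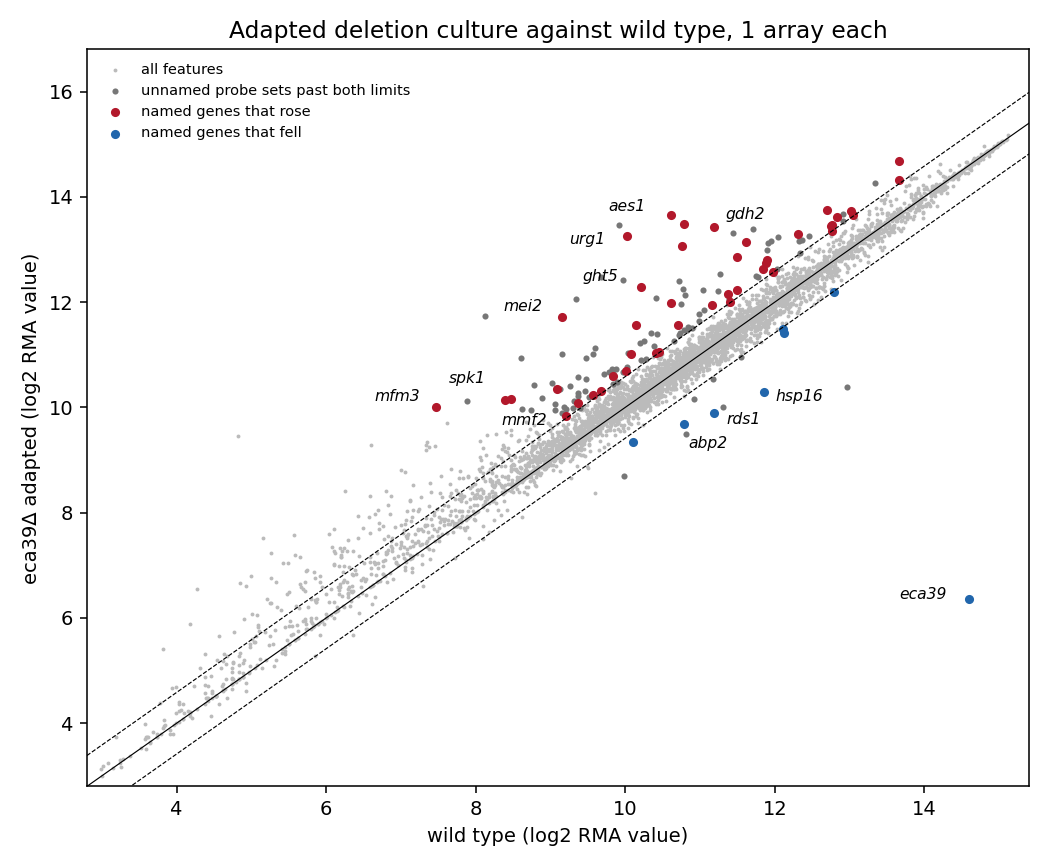
Log2 RMA value of each feature in the adapted deletion culture (vertical axis) against wild type (horizontal axis), 1 array each. Red points are the 43 named genes that rose and blue points the 8 that fell; dashed lines mark a 1.5-fold difference, and eca39 stands alone at 6.37 in the adapted culture and 14.60 in wild type.

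The deleted gene gave the largest difference of all members. Eca39 (SPBC428.02C) read 6.37 in the adapted culture, 6.12 in the unadapted deletion culture and 14.60 in wild type. The adapted reading lay below the 5th percentile of that array, 6.59, and taken at that level the signal was at least 258-fold lower than in wild type. Along the gene order of assembly ASM294v3, the flanking genes nup107 and pho4 differed from wild type by -0.04 and -0.14, and apq12, the second gene on the side of pho4, had the same value on all arrays, 12.50. The next gene on that side, arg12, is itself among the genes that rose.

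Of the role groups used here, which were drawn after the values were seen, amino acid synthesis and breakdown held the most members. Its 11 members include the deleted gene eca39. Arginine synthesis was represented by 4 genes. Carbamoyl phosphate, the first precursor, is made by an enzyme whose small and large subunits are encoded by arg5 and arg4. Arg5 read 13.62 in the adapted culture, 13.87 in the unadapted culture and 12.84 in wild type, a 1.72-fold rise over wild type. Arg4 read 13.73, 14.07 and 13.03 in the same order of cultures, a 1.63-fold rise. Ornithine carbamoyltransferase, encoded by arg3, joins that precursor to ornithine, and arg3 rose 1.73-fold (adapted 11.95, unadapted 12.41, wild type 11.16). Argininosuccinate synthase acts next, and its gene arg12 rose 1.59-fold, with 14.33 in the adapted, 14.52 in the unadapted and 13.66 in the wild-type culture. For all 4 genes the adapted value thus lay between those of the unadapted and the wild-type culture. In the list of arginine and proline genes, 10 of 18 were measured, these 4 rose, 6 did neither and all 10 lay above 0, with a median difference of 0.45 against 0.027 for all features. The members that stopped short included arg1 (0.48) and the proline synthesis gene pro1 (0.43). The arginase gene car1 differed by 0.30 from wild type in the adapted culture and by 1.17 in the unadapted one.

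Outside arginine synthesis, the histidine gene his4 rose 2.06-fold, with 13.74 in the adapted culture, 13.92 in the unadapted culture and 12.70 in wild type. Pha2, the prephenate dehydratase gene of phenylalanine synthesis, rose 1.52-fold (adapted 12.002, unadapted 12.14, wild type 11.40). These were the only ones of 18 measured genes for histidine, lysine and aromatic amino acids to rise, but 14 of the 18 lay above 0, with a median of 0.22 and with his3 (0.51), lys3 (0.49) and lys4 (0.48) next in size. In the branched-chain pathway itself 5 genes besides eca39 were measured and none rose, with differences from 0.07 for ilv5 to 0.41 for leu3. Each of those 5 lay above 0.

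Gdh2, the NAD-dependent glutamate dehydrogenase that releases ammonium from glutamate, was the member of the glutamate and ammonium list that rose. It read 13.43 in the adapted culture, 14.12 in the unadapted culture and 11.19 in wild type, a 4.74-fold rise. The synthesis genes asn1, for asparagine, and gdh1, for the NADP-dependent glutamate dehydrogenase, differed by 0.45 and 0.36, and the glutamine synthetase gene gln1 by -0.07. Further enzymes of this group were aca1, mmf2 and alr2. Aca1, listed on the platform as ppr1, encodes an N-acetyltransferase that detoxifies the proline analogue azetidine-2-carboxylate. It rose 6.46-fold, with 13.48 in the adapted, 13.96 in the unadapted and 10.78 in the wild-type culture. Mmf2, a member of the RidA family, whose proteins remove reactive enamines and imines formed in amino acid metabolism, rose 3.35-fold (adapted 10.14, unadapted 10.21, wild type 8.40). Alr2, an alanine racemase gene, rose 1.82-fold from a higher level (adapted 12.74, unadapted 12.69, wild type 11.88).

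The uracil-regulated genes held the largest rise among named genes. Urg1, named for its induction by uracil, read 13.26 in the adapted culture, 13.38 in the unadapted culture and 10.03 in wild type, a 9.40-fold rise. Urg2, whose product resembles uracil phosphoribosyltransferase, rose 4.91-fold (adapted 13.06, unadapted 13.28, wild type 10.76). Urg3 rose 1.71-fold, with 12.15, 12.26 and 11.38 in the adapted, unadapted and wild-type cultures. The genes sit together, with urg3 directly between urg1 and urg2 in the order of protein-coding genes, and the middle one had the smallest of the 3 differences. The other 6 measured genes of the uracil and pyrimidine list did neither, and 5 of them lay below 0, including ura3 (-0.15), the uracil permease gene fur4 (-0.14) and ura2 (-0.10). One purine gene rose, ade7, which acts in the middle of purine ring synthesis, by 1.61-fold (adapted 13.45, unadapted 13.57, wild type 12.76).

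Transporters that rose carry amino acids, vitamins, hexoses and copper. Per1, an amino acid permease gene, read 13.14 in the adapted culture, 13.47 in the unadapted culture and 11.61 in wild type, a 2.88-fold rise. Put4, annotated as a proline permease, rose 1.81-fold, and its values of 11.56 in the adapted, 11.002 in the unadapted and 10.71 in the wild-type culture placed the unadapted culture nearer to wild type. Aat1, another amino acid permease gene, passed the size limit narrowly, at 1.502-fold (adapted 13.36, unadapted 13.37, wild type 12.77). It lies directly beside alr2 in gene order. For the vitamins, liz1 encodes the pantothenate transporter and vht1 the biotin transporter. Liz1 rose 1.91-fold and was lower in the adapted culture than in the unadapted one (adapted 11.01, unadapted 11.98, wild type 10.08). Vht1 rose 1.54-fold, with 13.66, 13.99 and 13.04 in the adapted, unadapted and wild-type cultures. In the list of amino acid, nucleobase and vitamin transporters, these 5 of 14 measured members rose, none fell and 11 lay above 0, with a median of 0.35. The members that reached the brightness limit had a median of 0.38, against 0.0064 for all features at the limit.

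The hexose transporter genes went in opposite directions. Ght5, which encodes the high-affinity glucose transporter, read 12.28 in the adapted culture, 11.29 in the unadapted culture and 10.21 in wild type, a 4.22-fold rise. Ght2, another hexose transporter gene, was 1.63-fold lower than in wild type (adapted 11.42, unadapted 11.58, wild type 12.13), and ght8 differed by 0.00083. The metal transporter genes also split. Ctr4, a subunit of the copper transporter of the cell surface, rose 1.87-fold, with 12.80 in the adapted culture against 11.85 in the unadapted culture and 11.90 in wild type. Zrt1, the zinc uptake transporter gene, fell 1.52-fold (adapted 12.19, unadapted 12.13, wild type 12.79). Over 21 measured genes of iron, copper and zinc handling, these were the only members to pass the size rule, 12 lay above and 8 below 0, and the median was 0.074. The iron uptake gene fio1 was at -0.47, while in the unadapted culture it was at 0.62.

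**Figure D2:**
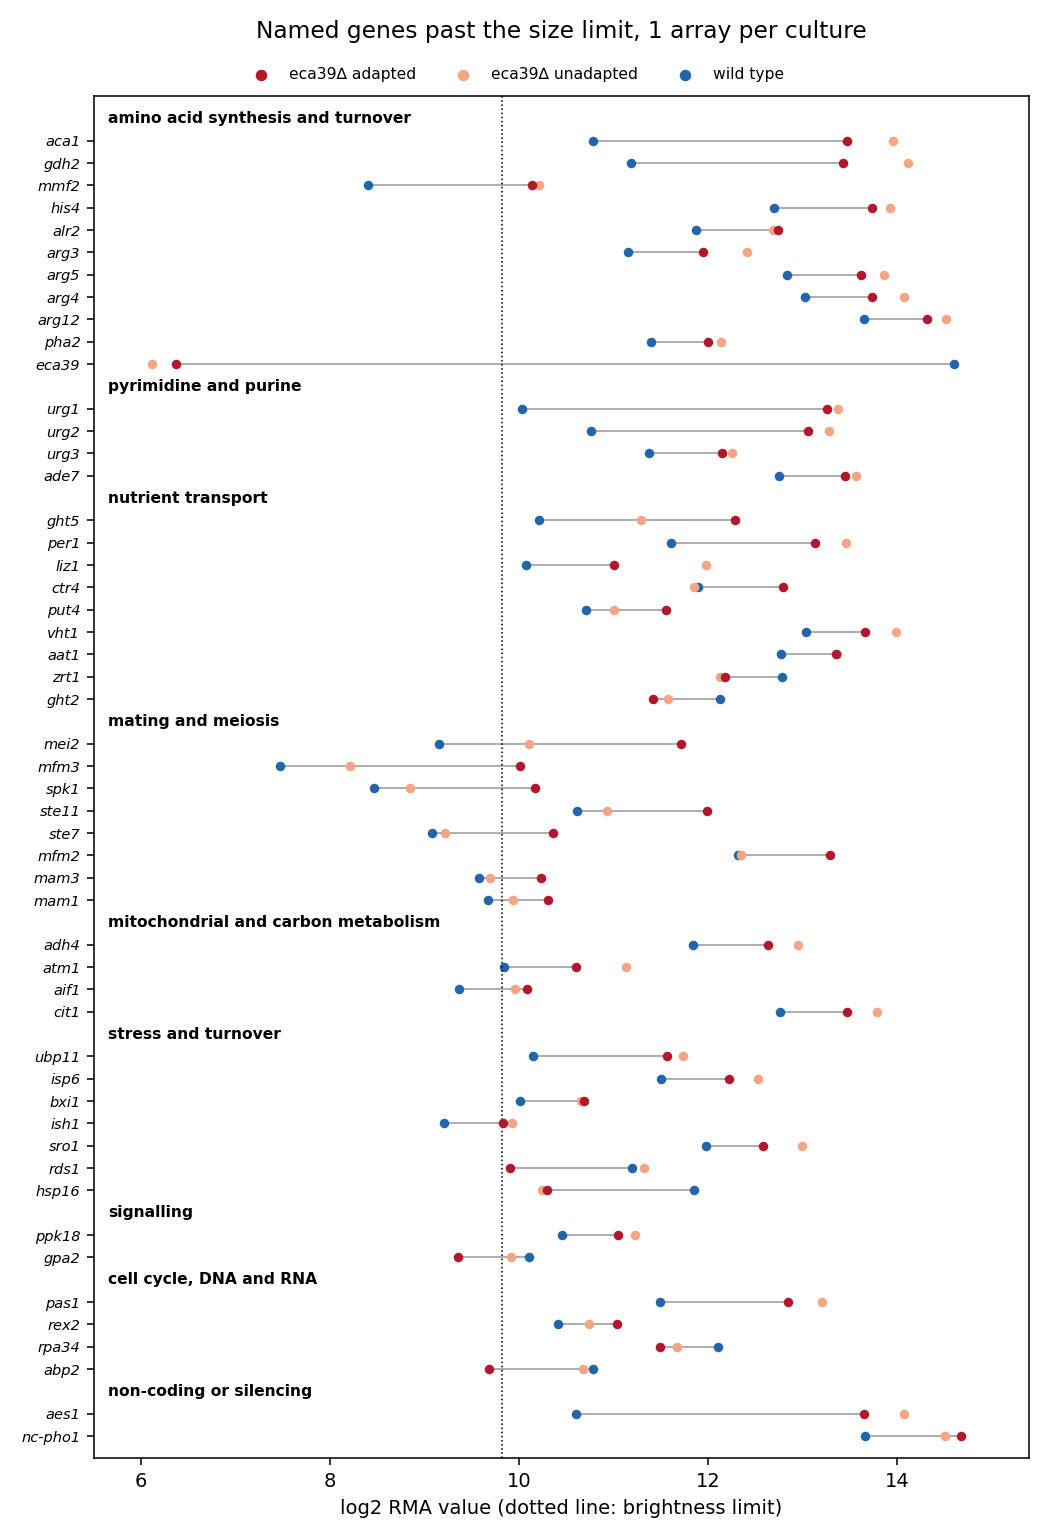
Log2 RMA values (horizontal axis) of the 51 named genes past the size limit in the adapted deletion (red), unadapted deletion (orange) and wild-type (blue) cultures, 1 array each, with a grey line between adapted and wild type. In the 8 mating and meiosis genes the unadapted value lies between those of the adapted culture and wild type; in the amino acid genes that rose, the unadapted value lies beyond the adapted one, except in alr2, where it is slightly lower.

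Mating and meiosis genes made up 8 of the 43 genes that rose, but most read below the brightness limit in wild type. When that limit was moved to the 50th percentile, 5 of the 8 (mfm3, spk1, ste7, mam1 and mam3) no longer passed, and mei2, ste11 and mfm2 did. Mei2, whose RNA-binding product is needed to start meiosis, read 11.72 in the adapted culture, 10.11 in the unadapted culture and 9.16 in wild type, a 5.89-fold rise. Ste11, the transcription factor gene that turns on mei2 and the pheromone genes, rose 2.59-fold (adapted 11.99, unadapted 10.93, wild type 10.62). Ste7, which is needed for conjugation, rose 2.42-fold, with 10.36, 9.21 and 9.08 in the adapted, unadapted and wild-type cultures. Spk1 encodes the MAP kinase of the pheromone response, and it rose 3.24-fold (adapted 10.17, unadapted 8.84, wild type 8.47). In each of these 4 genes the adapted value was the highest of the 3 arrays, and the unadapted value was closer to wild type than to the adapted culture.

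The pheromone genes of M-type cells were next. Mfm2 and mfm3 encode precursors of the M-factor, the pheromone of h- cells, and mam1 encodes the transporter that exports it. Mfm2, at 13.30 in the adapted culture, 12.35 in the unadapted culture and 12.31 in wild type, rose 1.97-fold and was by far the brightest of them. Mfm3 rose 5.80-fold (adapted 10.01, unadapted 8.21, wild type 7.47), and its 2 probe sets gave differences of 2.18 and 2.89. The mfm precursors are near-identical, so probe sets may read each other's transcripts. Mam1 rose 1.55-fold (adapted 10.31, unadapted 9.94, wild type 9.68). Mam3, the agglutinin gene of M-type cells, rose 1.58-fold (adapted 10.23, unadapted 9.70, wild type 9.57). Mfm1 and the P-factor receptor gene mam2, at 9.28 and 9.49 in the adapted culture against 6.59 and 8.28 in wild type, stayed below the brightness limit and were not counted, and sxa2, a protease gene of M-type cells, differed by -0.015.

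The mating type in the labels was checked with these genes. The P-factor gene map2 read 7.29, 7.37 and 7.42 in the adapted, unadapted and wild-type cultures, and the M-factor receptor gene map3 read 8.22, 8.15 and 8.38, all below the brightness limit and far from the values of mfm2. The remaining P-type markers were map1 (adapted 8.81, unadapted 7.59, wild type 7.00), a regulator gene, and the agglutinin gene map4 (adapted 9.58, unadapted 9.17, wild type 9.19). None of the P-type markers reached the limit on any array. In wild type, however, mfm2 was the only M-type marker to reach it. There mfm1 read 6.59, mfm3 7.47, mam1 9.68, mam2 8.28 and sxa2 9.01, levels that overlap those of the P-type markers. For the wild-type culture the check thus rests on mfm2 alone. Of 33 listed genes for mating and pheromone signalling 29 were measured and 14 reached the limit. Of the 29, 8 rose and none fell, the median was 0.63, and 25 lay above 0 and 4 below. Over the whole table, features below the limit had a median difference of 0.12, against 0.0064 for those at the limit. Counts above 0 in lists with many dim members may be raised by that shift. For the 14 genes at the limit the median was 0.64. Among the 14, 7 reached the limit in the adapted culture but read below it in wild type, and 6 of the 8 genes that rose were among these. The share of the 14 that rose is thus raised by the brightness limit itself. Of 13 measured meiotic entry regulators, mei2 and ste11 rose, the median was 0.27, and 10 lay above 0 and 3 below. Only 4 of them reached the limit, mei2 with wild type below it, and rep2 and mes1 differed by 0.07 and -0.05.

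**Figure D3:**
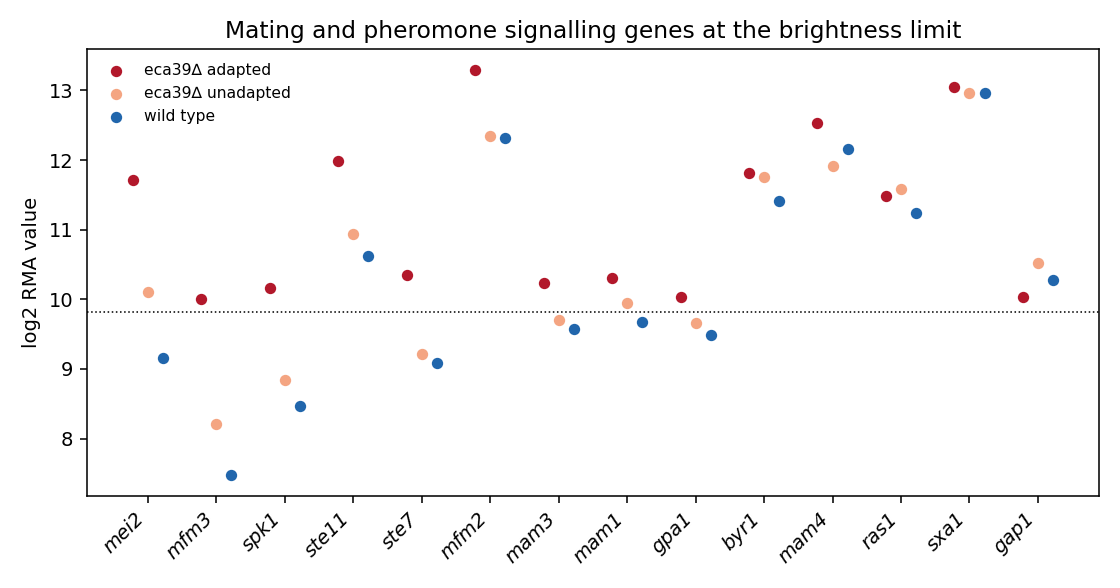
Log2 RMA values (vertical axis) of the 14 mating and pheromone signalling genes that reached the brightness limit (dotted line), in the adapted deletion (red), unadapted deletion (orange) and wild-type (blue) cultures, 1 array each, ordered by the difference between adapted and wild type. The first 8 genes rose; the last, gap1, read lower in the adapted culture than in wild type without passing the size limit.

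Genes of nitrogen starvation overlap with the groups above. Of 18 measured, mei2, mmf2, ste11 and isp6 rose, none fell, 17 lay above 0 and the median was 0.42. The 17 may be raised by the upward shift of dim features, since only 13 of the 18 reached the brightness limit. The median of these 13 was also 0.42. In 3 of them wild type read below the limit. Mei2 and mmf2 were among those 3, so the share that rose is raised by the limit itself. Isp6, a protease gene of the vacuole, where cells recycle their own protein, rose 1.66-fold (adapted 12.23, unadapted 12.53, wild type 11.50). Psp3, isp7 and mmf1 stopped short at 0.42 each. The permease gene isp5 differed by 1.85 but read only 9.19 in the adapted culture and 7.34 in wild type, below the limit.

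Carbon metabolism and mitochondria contributed 4 genes that rose by similar amounts. Citrate synthase, encoded by cit1, opens the tricarboxylic acid cycle, and cit1 rose 1.63-fold (adapted 13.47, unadapted 13.80, wild type 12.76). Adh4, an alcohol dehydrogenase gene, rose 1.72-fold (adapted 12.63, unadapted 12.95, wild type 11.85). The mitochondrial exporter gene atm1, whose product supplies the cytosol with sulfur for iron-sulfur clusters, rose 1.69-fold (adapted 10.60, unadapted 11.14, wild type 9.84). Aif1, a homologue of the apoptosis-inducing factor of animal mitochondria, rose 1.65-fold (adapted 10.09, unadapted 9.96, wild type 9.37). Cit1 was the only one of 26 measured genes in the list for respiration and the tricarboxylic acid cycle that rose, and 20 of them lay above 0 with a median of 0.065. Both isocitrate dehydrogenase genes were among those that stopped short, idh2 at 0.41 and idh1 at 0.32. The dihydroxyacetone kinase gene dak2 differed by -0.27 in the adapted culture and by 0.94 in the unadapted culture.

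Stress and protein turnover genes did not share a direction. Hsp16, a small heat shock protein gene, fell 2.94-fold, and its values of 10.30 in the adapted and 10.24 in the unadapted culture both lay below the 11.86 of wild type. Rds1, a stress- and nutrient-regulated gene, fell 2.45-fold, but only the adapted culture was low (adapted 9.90, unadapted 11.32, wild type 11.19). On the other side, the stress-responsive gene sro1 rose 1.51-fold (adapted 12.58, unadapted 13.00, wild type 11.98). Ish1, which encodes a nuclear envelope protein induced by stress, rose 1.54-fold close to the brightness limit (adapted 9.83, unadapted 9.93, wild type 9.21). Bxi1, a homologue of the BAX inhibitor of animal cells, rose 1.596-fold (adapted 10.68, unadapted 10.66, wild type 10.01), and the ubiquitin protease gene ubp11 rose 2.68-fold (adapted 11.57, unadapted 11.74, wild type 10.15). Hsp16 was the only one of 15 measured heat shock and chaperone genes to pass the rule, with a median of -0.018 for the list, 7 members above 0 and 8 below. Its neighbours by size were hsp9, at 0.52, and the co-chaperone gene mas5, at -0.30. In the core stress and peroxide list of 24 measured genes, 1 rose, 1 fell and the median was 0.057.

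Genes for growth and its control were few. Pas1, a cyclin gene that acts at the start of the cell cycle, rose 2.56-fold (adapted 12.85, unadapted 13.21, wild type 11.49). Abp2, whose product binds replication origins, fell 2.15-fold, with 9.68 in the adapted culture against 10.68 in the unadapted culture and 10.79 in wild type. Rpa34, a subunit gene of RNA polymerase I, which transcribes the ribosomal RNA genes, fell 1.53-fold (adapted 11.49, unadapted 11.67, wild type 12.11). All 27 measured ribosome biogenesis genes, rpa34 among them, lay below 0, with a median of -0.25 against 0.027 for all features. The helicase gene has1 (-0.49), the RNA polymerase I subunit gene ker1 (-0.44) and mak16 (-0.42) came next after rpa34, and no member other than rpa34 passed the size limit. Cytosolic ribosomal protein genes, by contrast, ran from -0.39 for rpl102 to 0.10, and none of 121 passed. The highest value on these arrays was 15.17, so changes in genes as bright as these may be understated. Histone genes at the brightness limit had differences from -0.076 to 0.074, a histone gene below it was at 0.27, and none passed. In the cell cycle list of 27 measured genes, pas1 rose and abp2 fell. In it 11 lay above 0 and 15 below, with a median of -0.0054. Among members at the brightness limit, cdt1 (-0.38) and adg3 (-0.34) came next in size. In the unadapted culture cdt1 was at -0.73 and adg3 at -0.61. The G1/S genes cdc22, cdc18 and cig2 were at -0.10, -0.029 and 0.015 in the adapted culture. In the unadapted culture cdc22, cdc18 and cig2 were at -0.62, -0.42 and -0.65.

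Signalling genes included ppk18, a kinase of the Greatwall family that acts below the nutrient-sensing TOR complex, which rose 1.51-fold (adapted 11.05, unadapted 11.23, wild type 10.45). Gpa2, the G protein alpha subunit gene of the glucose-sensing cAMP pathway, fell 1.68-fold to a level below the brightness limit (adapted 9.35, unadapted 9.92, wild type 10.10). Rex2, an RNA exonuclease gene, rose 1.55-fold (adapted 11.04, unadapted 10.74, wild type 10.41). Aes1, known as an enhancer of gene silencing by antisense RNA, gave the next largest rise after urg1, 8.26-fold (adapted 13.65, unadapted 14.08, wild type 10.61). The last member, nc-pho1, is a non-coding RNA gene at the acid phosphatase locus pho1, the name that the platform gave to its probe set. It rose 2.02-fold (adapted 14.68, unadapted 14.51, wild type 13.67), and which of these transcripts the probes read was not determined here.

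Members with 9 or fewer genes between them in the genome were looked for. How often other genes lie as near to each other was not tested. By the order of protein-coding genes, urg1, urg3 and urg2 form a run, alr2 and aat1 are neighbours, and aes1 has 8 genes between it and alr2. Mmf2 and put4 likewise have 8 genes between them, and rex2 and sro1 have 3. Nearness did not go with a shared direction throughout. Liz1, at 0.93, has 4 genes between it and ght2, at -0.71, and his4, at 1.04, has 6 between it and zrt1, at -0.60.

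The unadapted culture gives the second deletion array, and since both comparisons use the same wild-type array, only the values themselves are set beside each other. In the direct difference between the adapted and the unadapted culture, the size rule was passed upward by 0.665% and downward by 1.52% of 3609 features at the limit. Of the 51 members, 8 were 1.5-fold or more higher in the adapted culture, 4 were lower and 39 lay between. The adapted array was used to choose the members, so these counts are a description. The 8 were mfm3 (1.80), mei2 (1.61), spk1 (1.32), ste7 (1.14), ste11 (1.06), ght5 (1.00), ctr4 (0.95) and mfm2 (0.94). The 4 were rds1 (-1.42), abp2 (-1.005), liz1 (-0.97) and gdh2 (-0.69). Arg3 stood at -0.47 and aca1 at -0.48, lower in the adapted culture by less than the size limit.

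**Figure D4:**
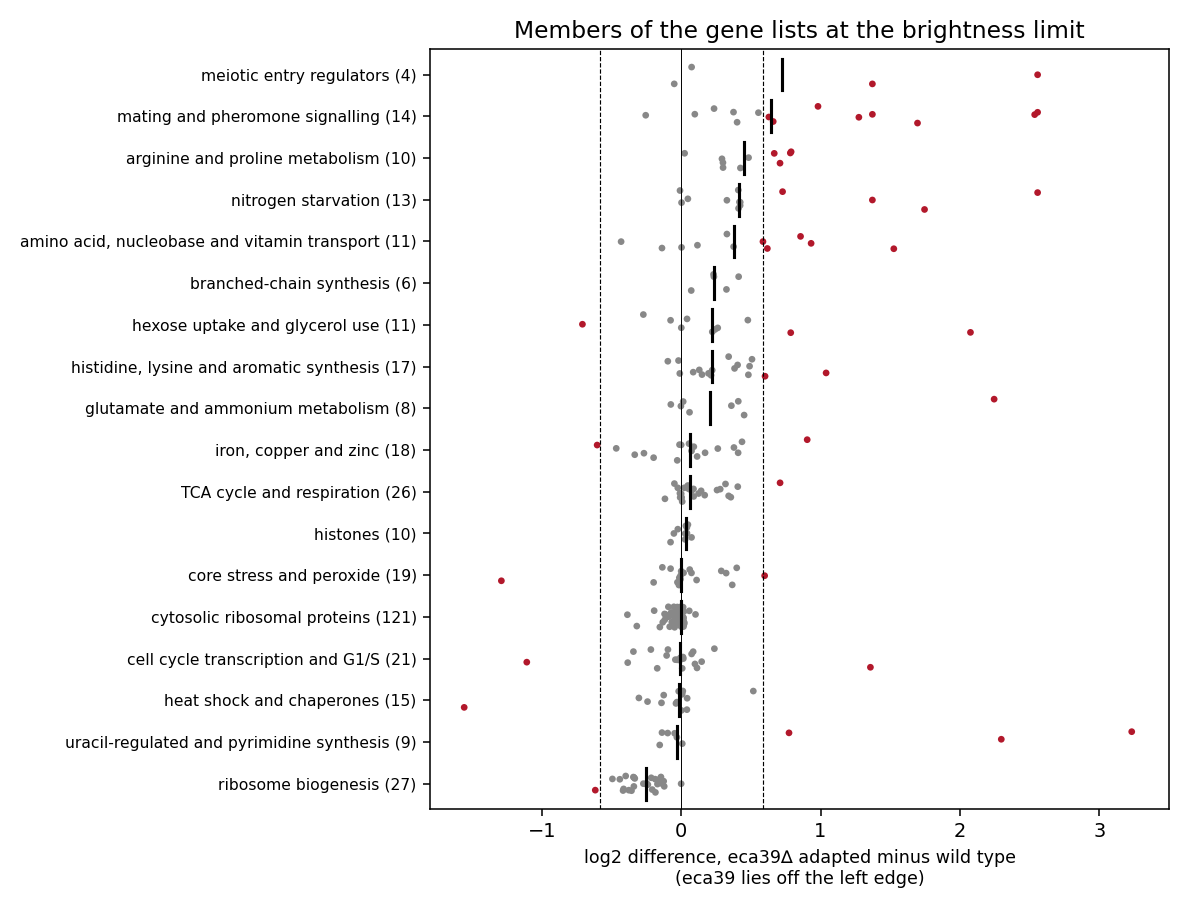
Log2 difference between the adapted deletion culture and wild type (horizontal axis) for each gene of 18 lists that reached the brightness limit, with the number of such genes in brackets, the median of those genes as a black bar and dashed lines at the size limit. Red points passed the size limit; ribosome biogenesis genes lie at or below 0 and arginine and proline genes above 0.

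Unnamed probe sets made up the larger part of the features that rose. Of 1449 at the brightness limit, 87 rose, with differences from 0.59 to 3.62 and a median of 0.89, and 36 of these were 2-fold or more. Only 7 fell, with differences from -2.57 to -0.60. The probe set 1770944_at, at 11.74 in the adapted culture, 12.51 in the unadapted culture and 8.12 in wild type, rose more than any named gene, 12.3-fold. It was followed by 1770946_at, which rose 11.7-fold (adapted 13.47, unadapted 13.87, wild type 9.91). The largest fall after eca39 was that of 1772389_at, 5.96-fold, with 10.39 in the adapted, 12.03 in the unadapted and 12.96 in the wild-type culture. The annotation used here gives these probe sets no single gene name. Below the brightness limit, 92 of 760 named genes were 1.5-fold or more higher and 4 as much lower, beside a median of 0.12 for those genes. Among them tlh2, a helicase gene of the chromosome ends, had 4 probe sets whose differences ran from 0 to 4.14, and the brightest of these, at 9.82 in the adapted culture, 5.87 in the unadapted culture and 5.68 in wild type, lay just below the limit.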

How the data were processed

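Total RNA of 3 cultures was biotin-labelled with an Affymetrix 3' IVT Express kit, per the labels' protocols. The deposited values are log2 expression values that the authors made by RMA (affy package), as the submitters' processing notes record. RMA corrects background, gives all arrays 1 distribution and summarises probe sets by median polish, so a shift of most transcripts would not be seen. A log base of 2 was assumed, as RMA normally writes. The genome build and software versions were not given in the sources used here.

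Of 4999 probe sets, 2917 had 1 gene name on the platform, 20 several and 2062 none. The gene number of 2914 matched the RefSeq gene table of assembly ASM294v3, which updated 113 names and gave gene order. Probe sets of 1 gene were averaged (Python 3.11.15, pandas 2.3.3). The named genes are all those with 1 symbol past both limits, those nearest the size limit, mating type markers, and list members by size. Members and the 18 lists were chosen with earlier results of these data known, and the role groups after their values. Alg13, car1 (among transporters) and ssp1 were dropped from lists they had entered by mistake, and car1, isp5, tlh2 and some smaller differences were named after their values were seen. The code of the size rule was run on simulated data with planted changes. The simulated noise was smaller than the spread of the real differences, and changes were planted only in features well above the brightness limit. That run says nothing about the error of the calls made here. No test was possible with 1 array per group.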

Additional observations from a re-analysis of the deposited data

Results flagged for a closer look

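In 2 of the 51 genes the adapted and the unadapted culture lay on opposite sides of wild type, and with 1 array each the difference between them was not tested. Rds1 differed from wild type by -1.29 in the adapted culture and by 0.13 in the unadapted culture. Ctr4 differed by 0.90 in the adapted culture and by -0.04 in the unadapted culture. In both genes the unadapted difference was small, and the adapted culture was the array that stood away from the other 2.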

How the results depend on the processing

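The counts depended most on the limits. With a size limit of 1 on the log2 scale, 53 features rose and 8 fell, and among named genes 17 rose and 4 fell. Without a brightness limit, 317 features rose and 23 fell, and 135 named genes rose. A brightness limit at the 50th percentile, removal of the intensity trend by lowess, a repeated quantile normalization and, for features, separate probe sets kept all 4 counts within 1.5-fold. Of the 51 members none changed direction, 4 missed the size limit after lowess (mam1, ish1, ppk18 and aat1) and 9 after the repeated normalization. At the 50th percentile 10 members fell short of the brightness limit, with their differences as before. The 10 include mfm3, spk1, ste7, mam1 and mam3. The median difference of all features was 0.027, and -0.0017 and -0.036 under the 2 rescalings, so small list medians have no settled sign. Those of histones, at 0.032, and of core stress genes, at 0, over members at the limit became -0.0067 and -0.0087 under repeated normalization, while ribosome biogenesis stayed at -0.29. No paired analysis was possible because each group had 1 array.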
